A study of Mus musculus with 6 samples.

Results

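The 10 genes examined here are known for transcription that follows neuronal activity: the zinc finger factors Egr1, Egr2, Egr3 and Egr4, the orphan nuclear receptors Nr4a1 and Nr4a3, the activity-dependent factor Npas4, the immediate early gene Ier2, and the synaptic genes Arc and Homer1. They were taken by symbol from the deposited gene counts, in which all 10 were found among 23079 genes. Of these, 9 passed the filter on low counts that left 16766 genes for testing, and Egr2 did not. The mice were C57BL/6 animals of the Dat bacTRAP line, in which a tagged ribosomal protein is placed in cells that use the dopamine transporter promoter, and were 4 months old. Adeno-associated virus of serotype 1 carried a scrambled hairpin with EGFP in the 3 control libraries and a Satb1 hairpin with EGFP in the 3 knockdown libraries, and both groups carried the transgene, the virus and EGFP. Midbrain was cut in coronal slices, and the substantia nigra pars compacta and ventral tegmental area were taken. The labels name 3 mice for all 6 libraries and tie no library to an animal, so p-values here reflect only the spread among 6 libraries, which may be technical.

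Activity genes are transcribed within minutes when calcium enters a neuron. Calcium-dependent kinases and the MAP kinase cascade act on factors already bound at their promoters, mainly CREB at the cAMP response element and serum response factor at the CArG box. Some of the products are transcription factors (EGR, NR4A and NPAS4) that pass the signal on to later genes, and others, such as ARC and the short form of HOMER1, act at synapses. Midbrain dopamine neurons also use an NR4A family member, Nr4a2, as an identity factor.

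The 6 libraries held between 147486754 and 170351145 counts, and 1 count corresponded to between 0.00557 and 0.00672 CPM, which is a count scaled to a common library size. Satb1 was lower in all knockdown libraries, with a log2 ratio of -1.72 ± 0.26 (SE; adjusted p = 0.00106), and its level was 82.9, 166 and 61.2 CPM in knockdowns 1 to 3, so that library 2 kept the most. The summed level of 12 dopamine neuron markers was between 18281 and 20978 CPM across controls against between 11457 and 14575 CPM after knockdown. That of 10 oligodendrocyte markers was between 387 and 445 CPM across controls against between 604 and 677 CPM after knockdown.

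Promoter sequences are shown for Npas4, Egr4 and Homer1, the 3 genes whose control and knockdown libraries did not overlap. Each runs 5′ to 3′ on the gene's strand from 250 bases before the RefSeq transcription start to 50 after it, in GRCm38.p6, and capitals mark TGACG on either strand, the core of the cAMP response element. The Npas4 window is chr19:4989922-4990221 on the minus strand, the Egr4 window chr6:85513540-85513839 on the minus strand and the first Homer1 window chr13:93303507-93303806 on the plus strand.
Npas4: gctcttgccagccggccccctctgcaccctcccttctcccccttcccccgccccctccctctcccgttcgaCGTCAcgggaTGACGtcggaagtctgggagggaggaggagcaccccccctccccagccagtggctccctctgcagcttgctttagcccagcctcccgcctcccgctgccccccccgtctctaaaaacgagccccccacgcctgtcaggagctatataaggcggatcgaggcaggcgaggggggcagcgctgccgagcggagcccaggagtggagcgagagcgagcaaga
Egr4: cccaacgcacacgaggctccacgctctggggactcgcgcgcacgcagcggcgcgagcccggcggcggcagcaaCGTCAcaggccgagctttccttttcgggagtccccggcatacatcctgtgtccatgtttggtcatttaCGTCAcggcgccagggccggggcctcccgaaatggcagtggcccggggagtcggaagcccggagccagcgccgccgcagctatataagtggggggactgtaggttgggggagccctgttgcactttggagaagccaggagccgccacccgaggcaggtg
Homer1: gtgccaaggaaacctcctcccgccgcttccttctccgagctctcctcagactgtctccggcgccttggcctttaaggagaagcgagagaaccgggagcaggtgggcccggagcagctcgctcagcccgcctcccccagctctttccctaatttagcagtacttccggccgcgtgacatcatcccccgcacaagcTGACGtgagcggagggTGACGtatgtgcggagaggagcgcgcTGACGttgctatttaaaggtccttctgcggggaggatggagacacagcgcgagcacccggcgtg

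The core TGACG occurred 2 times in the Npas4 window, beginning 179 and 169 bases before the start, 2 times in the Egr4 window and 3 times in this Homer1 window. Promoters of 6 of the 10 genes were in the RefSeq table, and the core was in 8 of their 11 windows, at least 1 for each of the 6 genes, and in 20.8% of all 32851 windows of 300 bases. Egr2 had 5 of the 11 windows. Its windows 3, 4 and 5 overlap, starting at 67537619, 67537620 and 67537680, and hold the same 2 core sites, so they are not separate hits. The full palindrome TGACGTCA, which contains the core on both strands, was in 1.79% of all windows and in none of these genes' windows. A CArG box was found in Egr2 windows and in no other of the 6 genes, against 1.63% of all windows. The EGR sites GCGTGGGCG or GCGGGGGCG (either strand) occurred once in the Nr4a1 window, which starts at chr15:101266596, and in 3.47% of all windows. Such matches are descriptions of the sequence only.

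Npas4, a neuron-restricted basic helix-loop-helix factor induced by calcium entry, rose 9.36-fold in the knockdown. Its counts were 7, 6 and 15 in controls 1 to 3, compared with 140, 48 and 101 in knockdowns 1 to 3, or 0.0430, 0.0389 and 0.101 CPM against 0.780, 0.312 and 0.634 CPM. Every knockdown library lay above every control, and knockdown 2 had the lowest of the 3 knockdown values. The mean went from 0.0609 ± 0.0346 to 0.576 ± 0.239 CPM (SD, n = 3 each). The log2 ratio was 3.23 ± 0.84 (SE) and passed the edgeR quasi-likelihood test, with an adjusted p of 0.0167. It was the only one of the 9 tested genes called higher (adjusted p under 0.05), or 11.1% of them, where 8.48% of all tested genes were called higher. The edgeR test called 0 of the 9 lower, where 12.6% of all tested genes were called lower. At an unadjusted p under 0.05 edgeR, DESeq2 and limma-voom each also gave 0 lower, and 2 higher, Npas4 and Egr1. The share of all tested genes at that threshold was not counted, so these numbers have no background to be read against. The Npas4 call was lost when control 1, control 2, knockdown 1 or knockdown 3 was left out, with adjusted p = 0.0599, 0.0651, 0.0882 and 0.0554 and log2 ratios between 2.95 and 3.16. The control mean rested on 28 counts in all. Npas4 lies on chromosome 19 from 4984355 to 4990316 (GRCm38, minus strand).

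**Figure D1:**
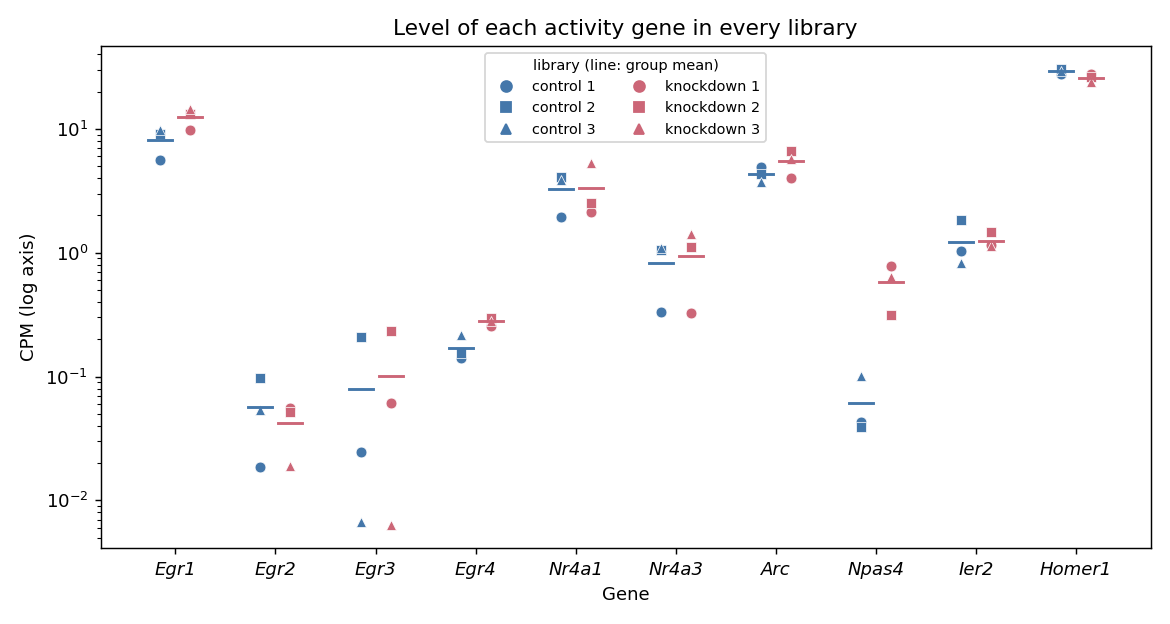
Level of each of the 10 genes in CPM (vertical log axis) in the 3 control libraries (blue) and the 3 knockdown libraries (red), with the replicate number as marker shape and the group mean as a line. Npas4 moves from 0.0389 to 0.101 CPM in controls to 0.312 to 0.780 CPM in the knockdown, whereas the groups overlap for 7 genes.

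The EGR factors bind GC-rich sites through zinc finger domains that are much alike between family members. Egr1, the most abundant of them, was at 5.57, 9.16 and 9.89 CPM in controls 1 to 3, compared with 9.87, 13.3 and 14.4 CPM in knockdowns 1 to 3. The groups met only at knockdown 1, which lay just under control 3. The mean was 8.21 ± 2.31 CPM across controls against 12.5 ± 2.37 CPM after knockdown, and the log2 ratio of 0.61 ± 0.22 (SE; 95% interval 0.14 to 1.08) did not pass (adjusted p = 0.0651, unadjusted p = 0.0151). It passed with DESeq2 (adjusted p = 0.0241), with total-count scaling (0.0187), when genes under a mean of 1 CPM were left out (0.0322), and without control 3 (0.0492) or knockdown 1 (0.0493). Egr1 stayed uncalled in 8 of 14 alternatives. Its log2 ratio ranged from 0.39 to 0.78 over them all, and its edgeR adjusted p reached 0.191 with 1 library left out.

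Egr4 had 23, 24 and 32 counts in the control libraries and 46, 46 and 45 in the knockdown libraries. In CPM these were 0.141, 0.156 and 0.215 against 0.256, 0.299 and 0.283, so that the groups did not overlap. The log2 ratio of 0.71 ± 0.78 (SE; 95% interval -0.99 to 2.40) did not pass (adjusted p = 0.575). The edgeR model shares the estimate of spread between genes of like abundance. Separation of the groups was seen for 3 of the 9 tested genes, Npas4, Egr4 and Homer1, and for 38.7% of all tested genes.

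Egr3 and Egr2 were close to the limit of these libraries. Egr3 had 4, 32 and 1 counts in controls 1 to 3, compared with 11, 36 and 1 counts in knockdowns 1 to 3. Both libraries numbered 2 were high and both numbered 3 had a single count, and the log2 ratio was 0.33 ± 1.34 (SE; adjusted p = 0.897). Its sign turned without control 1, control 3 or knockdown 2. Egr2, which also drives myelin genes in peripheral nerve, had 3, 15 and 8 counts against 10, 8 and 3, or 26 in all controls and 21 in all knockdown libraries. It was not tested under the main filter, and without a filter its log2 ratio was -0.41 ± 1.43 (SE; adjusted p = 0.885).

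Nr4a1 and Nr4a3 encode orphan nuclear receptors, which act without a known ligand as soon as they are made. Nr4a1 was at 1.94, 4.08 and 3.88 CPM in controls 1 to 3, compared with 2.13, 2.50 and 5.31 CPM in knockdowns 1 to 3. Its group means were nearly equal, 3.30 ± 1.18 and 3.31 ± 1.74 CPM (SD, n = 3 each), with a log2 ratio of 0.01 ± 0.37 (SE; 95% interval -0.80 to 0.82; adjusted p = 0.996). Nr4a3 was at 0.332, 1.06 and 1.08 CPM across controls against 0.323, 1.11 and 1.41 CPM after knockdown. In each group, library 1 was well below the other 2. The log2 ratio was 0.20 ± 0.63 (SE; 95% interval -1.16 to 1.56; adjusted p = 0.865). The sign of each turned without control 1 or without knockdown 3, and that of Nr4a1 also with limma-voom. The related Nr4a2, whose product maintains dopamine neurons, was at 308 ± 32.3 CPM across controls against 366 ± 62.1 CPM after knockdown, a log2 ratio of 0.25 that did not pass (adjusted p = 0.168).

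**Figure D2:**
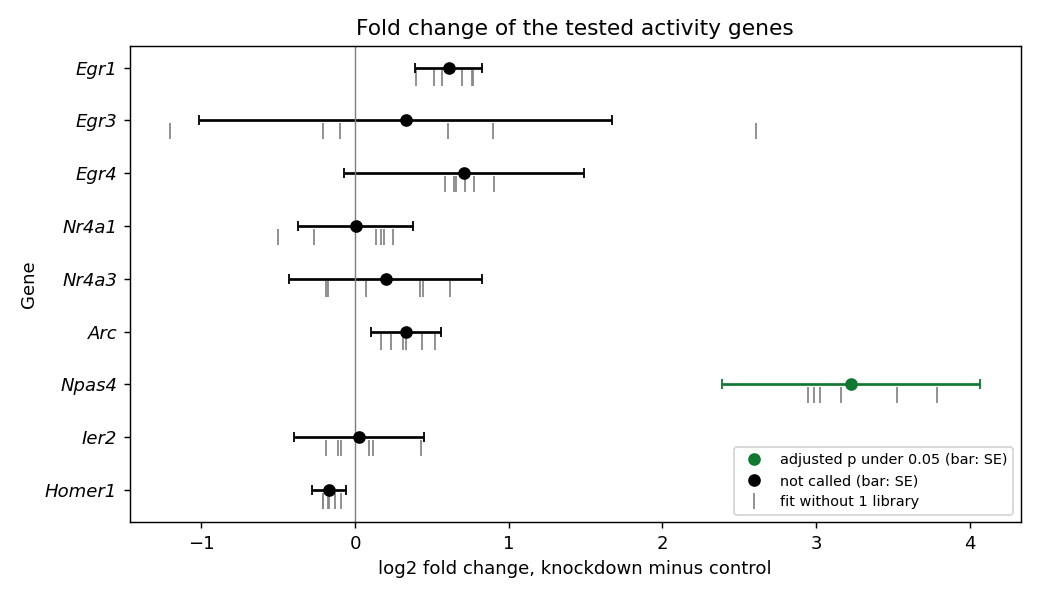
Log2 ratio, knockdown minus control (horizontal axis), of the 9 tested genes, with the standard error as a bar and, as grey ticks, the 6 fits that each leave out 1 library. Npas4 at 3.23 is the only called gene, and the ticks of Egr3, Nr4a1, Nr4a3 and Ier2 lie on both sides of 0.

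Arc, a capsid-like protein that drives removal of AMPA receptors from synapses, was at 4.96, 4.34 and 3.72 CPM across controls against 4.03, 6.64 and 5.72 CPM after knockdown. Knockdown library 1 lay within the controls and the other knockdown libraries above them. The log2 ratio was 0.33 ± 0.23 (SE; 95% interval -0.16 to 0.83; adjusted p = 0.341). Ier2, a small nuclear protein of the immediate early response, was at 1.03, 1.83 and 0.834 CPM against 1.15, 1.48 and 1.12 CPM. All knockdown values lay inside the control range (log2 ratio 0.03 ± 0.42, SE; 95% interval -0.89 to 0.95; adjusted p = 0.975).

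Homer1 encodes a scaffold that ties synaptic receptors to SHANK proteins and calcium stores. Neuronal activity raises a short form made by early polyadenylation, which gene counts do not separate from the long forms. Homer1 was the most abundant of the 10 genes, at 27.7, 30.6 and 29.1 CPM across controls against 27.7, 26.4 and 23.7 CPM after knockdown. Knockdown library 1, at 27.660 CPM, was just under control 1, at 27.667 CPM, so that the separation of the groups rests on less than 0.01 CPM. The log2 ratio of -0.17 ± 0.11 (SE; 95% interval -0.41 to 0.08) did not pass (adjusted p = 0.325) and turned in sign, to 0.0018, with total-count scaling.

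Levels per kilobase of annotated exon placed Homer1 first in controls, at 2.43 CPM per kilobase, followed by Egr1 at 1.83, Arc at 1.42, Nr4a1 at 0.940, Ier2 at 0.808, Nr4a3 at 0.138, Egr4 at 0.0795, Egr3 at 0.0181, Egr2 at 0.0166 and Npas4 at 0.0147. In that order the libraries of Homer1 and Egr1 did not overlap, at 2.31 to 2.56 and 1.24 to 2.21, nor did those of Arc and Nr4a1, at 1.22 to 1.62 and 0.552 to 1.16, or those of Ier2 and Nr4a3, at 0.548 to 1.20 and 0.0555 to 0.181. The lowest Egr4 library, at 0.0658, was above the highest Egr3 library, at 0.0471, and all other neighbours overlapped. In the knockdown Egr1 came first at 2.79 CPM per kilobase and Homer1 next at 2.16, with overlapping libraries, and Npas4 moved from rank 10 to rank 7, at 0.139. The exon length of Homer1, 11.976 kilobases, counts all its annotated forms, which lowers its level per kilobase. Exons of the 10 genes overlapped no other annotated gene in GENCODE M21.

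The genes did not vary together across all libraries. Control library 1 was the lowest control for Egr1, Egr4, Nr4a1 and Nr4a3, and also for Homer1 and Egr2, and knockdown 3 was the highest knockdown library for Egr1, Nr4a1 and Nr4a3. Against the control mean of log2 CPM, control 1 was at -0.51 for Egr1, -0.69 for Nr4a1 and -1.10 for Nr4a3, and knockdown 3 at 0.86, 0.76 and 0.95. Fos behaved likewise, with its lowest control value in library 1, 1.61 CPM, and its highest knockdown value in library 3, 4.75 CPM. A different order was seen for Egr3 and Ier2, which were highest in library 2 of each group. Over the 6 libraries the Pearson correlation of log2 CPM was 0.85 between Nr4a1 and Nr4a3, 0.88 between Egr1 and Egr4, 0.88 between Egr3 and Ier2 and 0.89 between Egr4 and Npas4, whereas it was 0.04 between Nr4a1 and Npas4. These values describe 6 libraries that share a group difference, and Egr3, Egr4 and Npas4 rest on few counts.

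**Figure D3:**
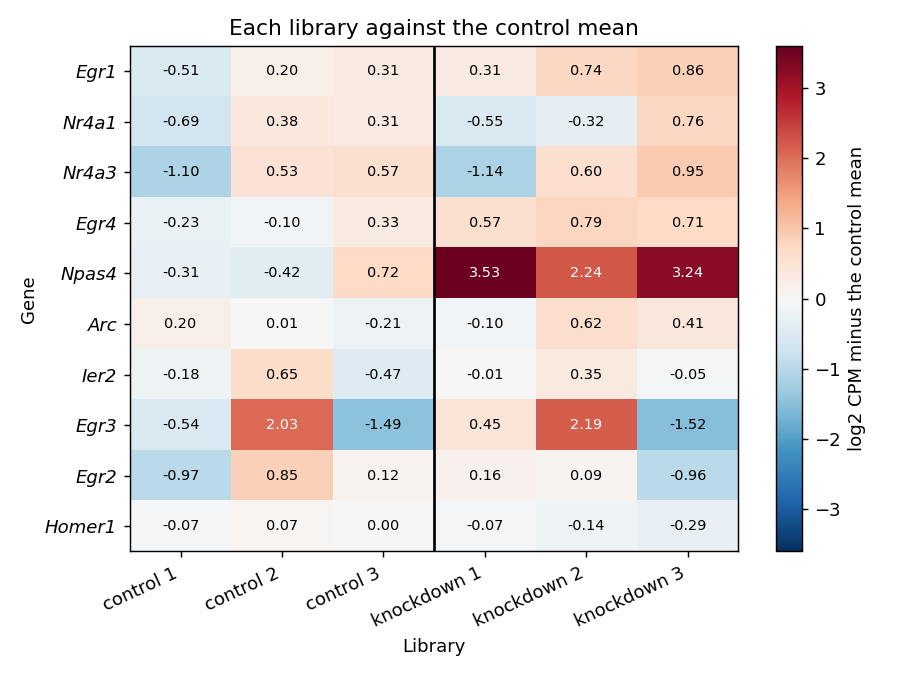
Log2 CPM of the 10 genes in each library (columns) minus the mean of the 3 controls, with a prior count of 2, as numbers and as colour from blue (lower) to red (higher). Npas4 is at 2.24 to 3.53 in the knockdown, and Nr4a3 is at -1.10 and -1.14 in the libraries numbered 1.

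Among 10192 other genes averaging 5 CPM or more, those most like each of 4 genes over the 6 libraries were named by correlation of log2 CPM. For Egr1 they were Ttll1, Dpyd and Pde7b (r = 0.98 to 0.99), and for Nr4a1 they were Lonrf2, Hnrpll and Ubr3 (0.98 to 0.99). Arc was followed most closely by Echs1, Jrk and Akt1 (0.98 to 0.99) and Homer1 by Srf, Aars2 and Cnnm2 (0.99). With 6 libraries and so many candidates, values of this size describe the search and carry no test.

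Of 26 other activity-induced transcription factors tested, 3 were called higher and 3 lower, 11.5% each, near the 8.48% and 12.6% of all tested genes, with a median log2 ratio of 0.20 against 0.01 for all tested genes. Those that rose were Ier3 (0.86), Btg2 (0.83), an antiproliferative cofactor, and Fosl2 (1.13), and those that fell were Jun (-0.90), Jund (-0.68) and Klf6 (-0.49). The Fosl2 call was lost without knockdown 3. Of the AP-1 genes that respond fastest, Fos was at 2.65 ± 0.901 CPM across controls against 3.23 ± 1.35 CPM after knockdown (log2 ratio 0.29, adjusted p = 0.62), and Fosb (0.42) and Junb (0.06) did not pass either. Exons of Jun, Junb and Jund overlap a gene on the opposite strand, over 52.6% of the exon bases of Jund, and strand use in the counting is not given in the sources used here.

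Effector genes that activity induces, such as growth factors, phosphatases and regulators of G proteins, were called higher in 6 of 45 cases (13.3%) and lower in 3 (6.67%), where 8.48% of all tested genes were called higher and 12.6% lower, with a median log2 ratio of 0.26. Bdnf, the neurotrophin whose promoter IV answers to calcium, rose from 18.9, 21.4 and 19.7 CPM to 26.5, 23.5 and 29.3 CPM, a log2 ratio of 0.40 ± 0.12 (SE; adjusted p = 0.0345). Its call was lost without any 1 library other than knockdown 2, with adjusted p between 0.0622 and 0.108, and 14.4% of its exon bases overlap an antisense gene. The other members that rose were Rgs4 (0.67), Gadd45a (0.68), the kinase gene Plk2 (0.67), Spry2 (0.57) and Bcor (0.39). Of these calls, that of Plk2 was lost without control 1 or knockdown 3, that of Spry2 without control 1, control 2 or knockdown 1, and that of Bcor without any library but knockdown 3. Rgs2, at 310.2 ± 0.914 CPM across controls and 193 ± 6.36 CPM after knockdown, fell by 0.69 on the log2 scale (adjusted p = 4e-04), Nrn1 fell by 0.57 and the granin gene Scg2 by 0.41, a call absent under total-count scaling and after leaving out control 2, control 3 or knockdown 1. Without control 1 the higher members were 2 and without knockdown 1 they were 3. Higher calls over all tested genes fell as well, from 1421 of 16766 to 1036 of 17135 and 804 of 17059. Genes on the opposite strand overlap 19.1% of the exon bases of Gadd45a and 22.3% of those of Nrn1.

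Genes of the signal path to the nucleus held more members called lower than called higher. Of 51 tested, 14 were lower, 27.5% against 12.6% of all tested genes, and 3 were higher, 5.88% against 8.48%. The calcineurin regulatory subunit gene Ppp3r1 had the smallest p of these and went from 434 ± 12.3 to 263 ± 12.5 CPM (log2 ratio -0.72 ± 0.08, SE; adjusted p = 0.000335). Of its exon bases, 14.3% overlap Wdr92 on the same strand. The calmodulin genes Calm3 (-0.64) and Calm2 (-0.33), the MAP kinase kinase gene Map2k1 (-0.50) and Prkaca (-0.40), the catalytic subunit of protein kinase A, also fell. Those that rose were Crtc2 (0.86), a CREB coactivator, Elk3 (1.04), a ternary complex partner of serum response factor, and the kinase gene Rps6ka2 (0.35), a call lost without control 2, control 3, knockdown 1 or knockdown 3. Of the MEF2 genes, whose products are bound at activity gene promoters, Mef2c was at 0.50 and did not pass (adjusted p = 0.245). Mef2b shares 4.42% of its exon bases with Borcs8 on the same strand. Mef2a (-0.36), Mef2b (-0.36) and Mef2d (-0.33), named after their values were seen, fell. Total-count scaling and leaving out knockdown 1 each ended all 3 calls; without control 1 those of Mef2a and Mef2b were lost, without control 3 those of Mef2a and Mef2d, and without control 2 that of Mef2d. Neither Srf nor Creb1 passed: Srf was at 17.4 ± 2.25 and 12.6 ± 2.23 CPM (log2 ratio -0.47, adjusted p = 0.0543) and Creb1 at 62.4 ± 2.14 and 54.2 ± 4.05 CPM (-0.20, adjusted p = 0.176). With DESeq2 Srf passed (adjusted p = 0.0338). Under total-count scaling 4 of these genes were lower and 5 higher, the calls for Calm2 and Prkaca among those lost. Of the same genes, 7 were lower without knockdown 1 and 9 without control 2. Lower calls over all tested genes fell as well, from 2115 to 972, 1132 and 1322 in these fits. Total-count scaling also raised the higher calls over all tested genes from 1421 to 2770.

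Partners of the proteins encoded by the 10 genes were called lower in 6 of 24 cases (25%) and higher in 2 (8.33%), where 12.6% of all tested genes were called lower and 8.48% higher. Homer2, the nearest relative of Homer1, fell from 125, 117 and 108 CPM to 50.7, 78.5 and 51.6 CPM, a log2 ratio of -0.96 ± 0.15 (SE; adjusted p = 0.00125), while Homer3 was at -0.32 and did not pass (adjusted p = 0.152). Of the Homer3 exon bases, 25.4% overlap Ddx49 on the opposite strand. Among genes whose products bind HOMER scaffolds, Shank2 (-0.78) and Shank1 (-0.41) fell, the last a call absent under total-count scaling and after leaving out any library but knockdown 2. Arnt, which pairs with NPAS4, fell by 0.77, from 23.0 to 13.5 CPM. The more abundant Arnt2, on the same list, went the other way, from 111 to 138 CPM. Its groups did not overlap, and its log2 ratio of 0.31 did not pass (adjusted p = 0.0612). Of the retinoid receptors that pair with NR4A1, Rxrb fell by 0.61 and Rxra (0.50) and Rxrg (0.71) rose. No retinoid receptor was called higher without control 1, control 3 or knockdown 1, and the Rxrg call was also lost with limma-voom and without control 2 or knockdown 2, the Rxra call without knockdown 3. The EGR corepressor gene Nab2, itself induced by EGR1, was at 1.04, 1.99 and 1.69 CPM across controls against 2.52, 3.44 and 2.42 CPM after knockdown. Its groups did not overlap, but its log2 ratio of 0.83 did not pass (adjusted p = 0.0904), and 35.7% of its exon bases overlap an antisense gene. Nab1 was at 0.16 (adjusted p = 0.346).

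**Figure D4:**
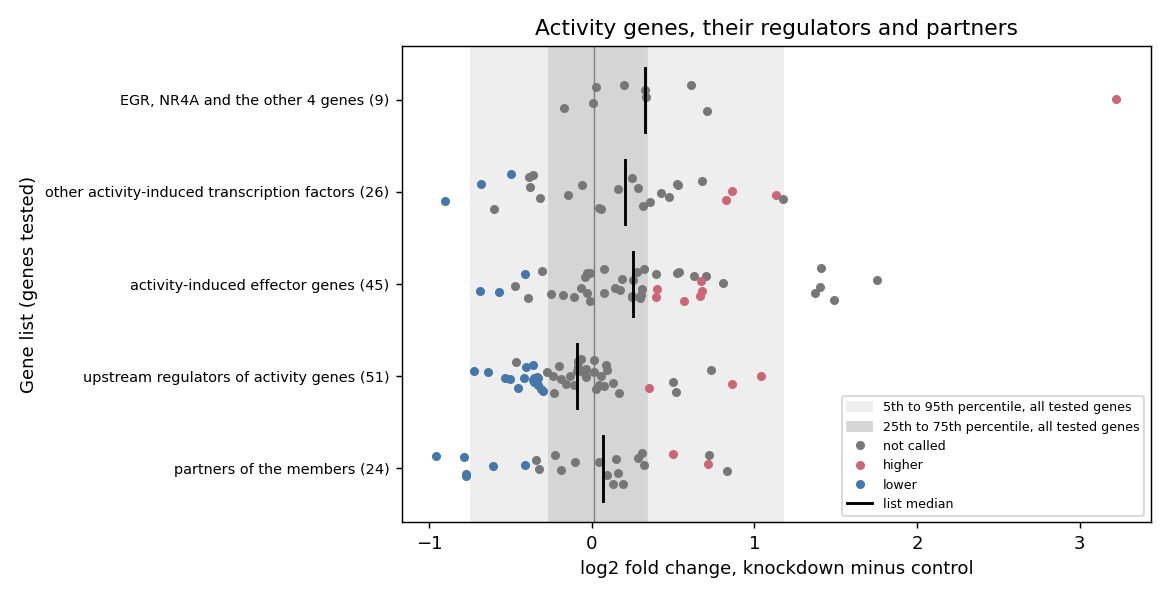
Log2 ratio, knockdown minus control (horizontal axis), of each tested gene in 5 lists (rows, with the number tested), coloured by call, with the list median as a black line and grey bands for the spread of all 16766 tested genes. Npas4 at 3.23 lies far outside the band from the 5th to the 95th percentile, -0.75 to 1.18, and 14 regulators are called lower.

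Among other cells, only the oligodendrocyte and astrocyte marker sums separated the groups. The oligodendrocyte sum was higher after knockdown and the astrocyte sum lower. Of 10 oligodendrocyte markers 8 were called higher, and of 12 dopamine neuron markers 8 were called lower. Of all tested genes 8.48% were called higher and 12.6% lower, and 51.2% had a log2 ratio above 0. Between control and knockdown libraries the summed levels were 281 to 329 and 269 to 271 CPM for 10 astrocyte markers, 25.5 to 27.2 and 24.9 to 32.5 CPM for 10 microglia markers, 205 to 252 and 225 to 326 CPM for 7 markers of GABA neurons, and 5.95 to 6.84 and 6.60 to 9.54 CPM for 11 vessel markers. The microglia, GABA neuron and vessel sums overlapped between the groups. Markers of glutamate neurons (58.2 to 66.6 and 56.4 to 70.3 CPM), serotonin neurons (31.0 to 54.0 and 25.5 to 50.03 CPM), ependyma (11.0 to 13.4 and 10.3 to 12.4 CPM) and blood (7.58 to 22.03 and 15.3 to 33.0 CPM) also had overlapping groups. Some sums were carried by 1 abundant gene that went against the rest of its list. Of the astrocyte markers 9 of 10 had log2 ratios above 0 (median 0.57) and 2 were called higher, while Slc1a2, most of the sum, was called lower, and without it the sums were 54.6 to 71.5 CPM in controls and 83.0 to 102 CPM after knockdown. Of the microglia markers 9 of 10 were above 0 (median 1.04) and 1 was called higher, while P2ry12 was called lower, and without it the sums were 7.31 to 7.59 and 9.70 to 19.0 CPM. All 7 markers of GABA neurons (median 0.32) and 9 of 11 vessel markers (median 0.59) were above 0, with 1 called higher in each list. All 6 tested blood markers were above 0 as well (median 0.82), and S100a8, on few counts, was called higher. Without Slc17a6, the glutamate neuron sums were 12.9 to 20.3 CPM in controls and 9.41 to 12.4 CPM after knockdown. In that list Neurod6 was called lower (log2 ratio -0.67), and 3 of 5 markers were above 0. Of the 4 serotonin neuron markers, only Htr1a was above 0, and it was called higher (0.86). No marker was at 0 in all libraries. The part of these cells in the values of the 10 genes was not tested, and in such bulk RNA fewer cells of a type and less RNA per cell cannot be told apart.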

How the data were processed

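Raw gene counts, as whole numbers for each of the 6 libraries, were deposited by the authors. The submitters' processing notes list TopHat2 2.0.8 and mm10. How reads were counted, whether strand was used and how shared reads were handled were not given in the sources used here. Groups and replicate numbers came from the sample titles, which say siRNA where the treatment text says shRNA, and the labels do not state a ribosome capture step.

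Knockdown and control were compared across all genes with the edgeR 4.0.16 quasi-likelihood test (R 4.3.3), TMM scaling and filterByExpr (minimum count 10, minimum total 15), 2-sided, with Benjamini-Hochberg adjustment over 16766 genes and a threshold of 0.05. Standard errors were derived from the F statistic. The test was checked on simulated counts. Alternatives were DESeq2 1.42.0, limma-voom (limma 3.58.1), other scalings, filters and dispersions, a replicate block and leaving out each library.

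The 10 genes and the lists were chosen with earlier results of these data known. Named genes were the 10 genes, Satb1, 12 set genes of the pathway, at most 6 called genes per list and direction by p, and the 3 genes most like each of Egr1, Nr4a1, Arc and Homer1. Some of the genes so named are not reported here. Sequences and coordinates are those of GRCm38 (RefSeq GRCm38.p6 promoters, GENCODE M21 exons).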

Additional observations from a re-analysis of the deposited data

How the results depend on the processing

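Total-count scaling gave 2770 higher and 972 lower genes against 1421 and 2115 (74.0% of the called genes higher against 40.2%), and the median log2 ratio over all genes moved from 0.01 to 0.18. Leaving out 1 library gave 804 to 1356 higher and 1132 to 2054 lower genes. Of the 10 genes described, 2 were called higher with total-count scaling, with DESeq2 and with the replicate block, Npas4 and Egr1 each time, and between 0 and 2 when 1 library was left out. With a minimum mean of 1 CPM Npas4 was not tested and Egr1 alone was called.

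The replicate numbers are not stated to mark a shared animal or day. Correlations of same-numbered libraries' deviations from their group means were 0.06, 0.01 and 0.11, and 5 of the 6 libraries correlated best with their own number. The block raised the called genes to 1924 higher and 2789 lower, and Egr1 then had an adjusted p of 0.00657 (edgeR).

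Some log2 ratios turned sign, none of them called. With 1 library left out they ranged from -1.20 to 2.61 for Egr3, -0.50 to 0.25 for Nr4a1, -0.19 to 0.62 for Nr4a3, -0.19 to 0.43 for Ier2, -0.088 to 0.50 for Fos and -0.20 to 0.26 for Junb. Nr4a1 was at -0.042 with limma-voom and -0.037 with the block, and Homer1 at 0.0018 with total-count scaling. The cause was not tested. Arc and Egr4 kept their sign and stayed uncalled in every alternative in which they were tested. Partners of the genes were called higher in 7 cases with total-count scaling, 5 with DESeq2 and 4 with the block or a minimum mean of 1 CPM. Over all tested genes these settings called 2770, 1962, 1924 and 1797 higher, against 1421 in the main fit. Depth limits Egr2, Egr3, Egr4 and Npas4, which had at most 289 counts per group.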
